A study of Mus musculus with 8 samples.

Results

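The nuclear genes for subunits of the mitochondrial oxidative phosphorylation complexes were examined in sorted distal convoluted tubule (DCT) of TBC1D4-deficient and wild-type mice. Members were the probe sets with exactly 1 symbol in the platform annotation whose symbol names a structural subunit of complex I (Nduf genes), II (Sdh), III (Uqcr), IV (Cox4 to Cox8) or V (Atp5), with assembly factors left out. That gave 111 probe sets for 80 genes, of 21158 probe sets with 1 symbol for 18782 genes. Each gene was read by its brightest probe set. Complex I contributed 35 genes, complex II 4, complex III 7, complex IV 17 and complex V 17. A further 9 probe sets with several symbols were left out, and some other genes of these complexes are not analysed here. The 13 proteins made in the mitochondrion itself are not named by any probe set used.

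The mice were TBC1D4-deficient (4 arrays) or TBC1D4 wild-type (4 arrays). All were male C57/Bl6 mice aged 8 weeks carrying 1 PV-EGFP transgene, which expresses EGFP from the parvalbumin promoter, so both genotypes share that reporter, and parvalbumin is known to mark the early part of the DCT. Fluorescent tubules were sorted as large particles (COPAS), and the sources used here name neither the deficient allele nor how many mice went into each sample. TBC1D4 is a Rab GTPase-activating protein that holds back GLUT4 vesicles until insulin signalling phosphorylates it, and the study asked which DCT genes change without it. Nothing in the labels ties each sample to its own animal. The p-values therefore reflect spread between samples only, which may be technical.

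The DCT reabsorbs sodium chloride against a gradient and is one of the nephron segments richest in mitochondria. In oxidative phosphorylation, complex I takes electrons from NADH and complex II from succinate. Ubiquinone carries them to complex III and cytochrome c to complex IV, which reduces oxygen. Complexes I, III and IV pump protons out of the matrix, and complex V uses the returning protons to make ATP. Several complex IV subunits have alternative isoforms that are known from muscle, lung or testis.

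The arrays matched their labels. Tbc1d4 had log2 intensities of 2.48, 2.72, 2.50 and 2.21 in TBC1D4-deficient replicates 1 to 4, against 6.69, 6.79, 6.58 and 6.94 in wild-type replicates 1 to 4 (limma log2 difference -4.27, adjusted p = 6.35e-08). The DCT markers Slc12a3, the thiazide-sensitive cotransporter, and Calb1, a calcium-binding protein, averaged 11.49 and 11.06 in TBC1D4-deficient arrays, against 11.49 and 11.12 in wild-type arrays. Of the 23039 probe sets fitted, 1 passed a limma adjusted p of 0.05 (0.00434%), and that probe set was Tbc1d4. The sample descriptions open with numbers of unstated meaning, along which the genotypes alternate (wild-type at 5, 7, 9 and 11). The arrays numbered 5 to 8 and those numbered 9 to 12 hold 2 of each genotype apiece, and values within these sets are given beside pooled ones.

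Promoters of the subunit genes are shown here because the factors known to act on this pathway, NRF-1, ETS family factors, the oestrogen-related receptors (ERR) and YY1, have simple recognition letters. RefSeq promoters (GRCm38.p6, 250 bases before to 50 after the gene start) were matched for 66 of the 80 genes and for 14714 genes of the array. The NRF-1 core GCGCATG stood on either strand in 13 of 66 promoters (19.7%), against 5.85% of all 14714. The ETS core CCGGAAG was found in 17 (25.8%, against 13.7%), the ERR letters AAGGTCA in 8 (12.1%, against 4.5%) and the YY1 core AAGATGG in 10 (15.2%, against 7.25%). The TATA letters TATAAA were found in 8 (12.1%, against 13.8%). The NRF-1 core overlaps its own reverse complement, none of the motifs contains another, and a match is a description of letters, not a binding site. The examples below are an isoform pair (Cox8a, the general isoform of subunit 8, and Cox8b, known from heart and skeletal muscle) and the genes Cox6a1 and Atp5k, whose windows hold several of the motifs. Capitals mark motif letters on either strand.
Cox8a (chr19:7217567-7217866, minus strand): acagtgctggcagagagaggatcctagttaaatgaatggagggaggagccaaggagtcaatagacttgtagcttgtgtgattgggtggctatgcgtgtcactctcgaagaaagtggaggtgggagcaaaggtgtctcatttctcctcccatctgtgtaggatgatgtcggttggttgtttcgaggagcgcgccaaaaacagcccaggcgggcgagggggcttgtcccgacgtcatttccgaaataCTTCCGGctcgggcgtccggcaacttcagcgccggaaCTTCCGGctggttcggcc
Cox8b (chr7:140900397-140900696, minus strand): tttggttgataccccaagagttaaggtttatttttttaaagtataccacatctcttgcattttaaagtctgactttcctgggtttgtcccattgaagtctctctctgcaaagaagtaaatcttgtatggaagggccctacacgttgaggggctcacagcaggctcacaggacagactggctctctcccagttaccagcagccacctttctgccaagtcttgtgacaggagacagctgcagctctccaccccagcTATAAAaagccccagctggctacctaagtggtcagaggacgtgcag
Cox6a1 (chr5:115348909-115349208, minus strand): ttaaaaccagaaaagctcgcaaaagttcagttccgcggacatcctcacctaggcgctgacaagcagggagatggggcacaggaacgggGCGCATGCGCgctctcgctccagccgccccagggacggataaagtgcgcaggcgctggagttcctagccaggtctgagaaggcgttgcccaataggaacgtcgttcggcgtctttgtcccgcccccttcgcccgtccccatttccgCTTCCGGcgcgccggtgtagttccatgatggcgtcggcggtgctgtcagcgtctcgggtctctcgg
Atp5k (chr5:108434350-108434649, minus strand): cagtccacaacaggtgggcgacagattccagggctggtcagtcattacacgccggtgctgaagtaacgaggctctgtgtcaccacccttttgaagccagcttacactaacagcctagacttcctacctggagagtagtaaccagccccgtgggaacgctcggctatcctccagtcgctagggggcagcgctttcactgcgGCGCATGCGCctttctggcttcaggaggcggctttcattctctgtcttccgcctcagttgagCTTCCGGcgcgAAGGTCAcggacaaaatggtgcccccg
The Cox8a window held the ETS core on the reverse strand and 19 CG pairs. The Cox8b window held 2 CG pairs and TATAAA, which began 4 bases after the annotated gene start and not before it. Cox6a1 held the NRF-1 core on both strands and the ETS core, and Atp5k held NRF-1, ETS and ERR letters.

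Most of the 80 subunit genes had bright probe sets in the sorted tubules, 7 had a mean log2 level below 5, and none passed the test between genotypes. Of the 80 probe sets, 63 lay in the top 10% of all 28371 by mean log2 intensity, and the median level was 8.98, against 3.58 over all 18782 genes. A probe set's brightness also depends on its probes and each gene was read by its brightest one, so these ranks describe the probe sets and do not order amounts of RNA. No member passed the limma threshold over all probe sets (0 of 80, each with adjusted p = 0.9999). At an unadjusted p below 0.05 there were 2 of 80 higher in TBC1D4-deficient arrays and 0 lower, against 1.45% and 1.54% of all genes. The groups did not overlap for 2 members that were higher and 1 that was lower, against 0.932% and 0.99% of all genes. All 80 intervals lay inside a 1.5-fold difference in either direction.

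The differences leaned one way. In TBC1D4-deficient arrays 62 of 80 genes averaged higher and 18 lower (77.5% higher, against 49.6% of all genes), with a median log2 difference of 0.05 (1.037-fold), against -0.0007 over all genes. The differences ran from -0.19 to 0.20. Arrays 5 to 8 gave a median of 0.07 with 63 of 80 higher, and arrays 9 to 12 gave 0.02 with 52 of 80 higher. In both sets 46 were higher (57.5%, against 24% of all genes). With each array centred on its median the shares higher were 86.2% of members and 59.6% of all genes. With the identifier range as a covariate they were 75% and 49.9%, and the member median was 0.04.

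**Figure D1:**
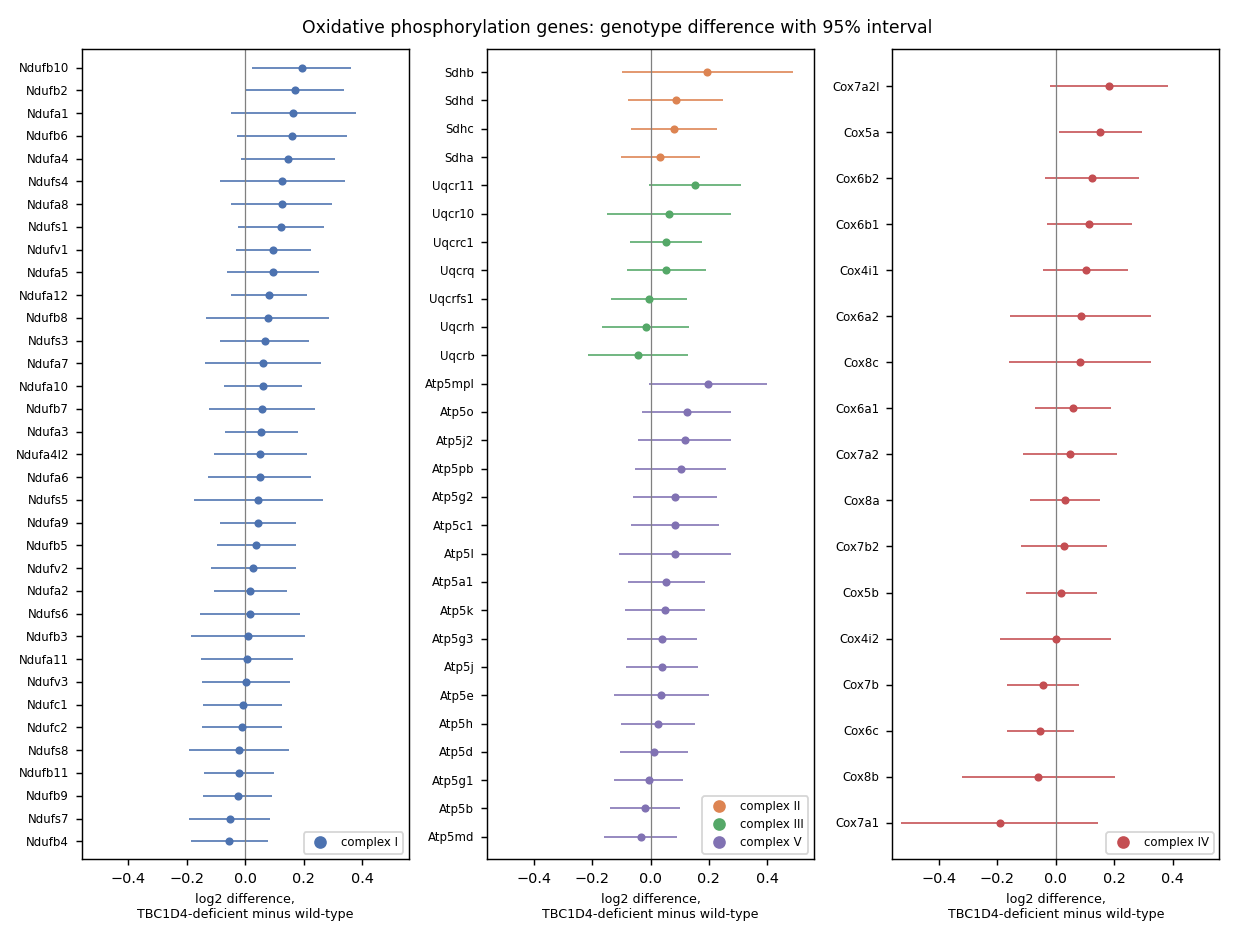
Log2 difference (horizontal, TBC1D4-deficient minus wild-type) of each of the 80 genes (vertical), coloured by complex. Points are limma estimates and lines their 95% intervals; 62 points lie above 0, the intervals of Ndufb10 and Cox5a lie above 0 while all others include it, and Cox7a1 has the lowest estimate (-0.19).

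Complex I was represented by 35 genes, of which 28 were higher and 7 lower in TBC1D4-deficient arrays (median 0.05; 0 passed). Ndufb10, an accessory subunit of the membrane arm, had the smallest unadjusted p of all members. It read 6.45, 6.43, 6.54 and 6.20 in TBC1D4-deficient replicates 1 to 4, against 6.24, 6.19, 6.20 and 6.22 in wild-type replicates 1 to 4. Replicates 1 to 3 of the TBC1D4-deficient group lay above every wild-type array and replicate 4 lay among them. The mean was 6.41 ± 0.15 in TBC1D4-deficient arrays and 6.21 ± 0.02 in wild-type arrays (SD, n = 4 each), and the log2 difference was 0.19 (95% interval 0.02 to 0.36; limma unadjusted p = 0.0289, limma adjusted p = 0.9999). It was 0.18 within arrays 5 to 8 and 0.21 within arrays 9 to 12.

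Ndufv1 carries the flavin that accepts electrons from NADH, and its groups did not overlap. Its values were 9.33, 9.29, 9.44 and 9.33 in TBC1D4-deficient replicates 1 to 4, against 9.20, 9.28, 9.28 and 9.24 in wild-type replicates 1 to 4. The nearest arrays of the groups, TBC1D4-deficient replicate 2 and wild-type replicate 3, nearly touched, and the log2 difference was 0.10 (-0.03 to 0.23; unadjusted p = 0.13). Ndufb2 and Ndufb6, accessory subunits of the membrane arm, stood at 0.17 and 0.16 on the log2 difference scale, and both intervals included 0. Ndufs1, the large iron-sulfur subunit of the arm that faces the matrix, stood at 0.12 (-0.02 to 0.27). Ndufb4, the brightest complex I probe set, stood at -0.05 (-0.19 to 0.08). Ndufa1, an accessory subunit needed for assembly, had a difference of 0.33 within arrays 5 to 8 and 0.0007 within arrays 9 to 12, and TBC1D4-deficient replicate 3 was its highest array at 7.32.

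Complex II, which is also the succinate dehydrogenase of the tricarboxylic acid cycle, had all 4 genes higher on average (median 0.08; 0 passed). Sdhb, its iron-sulfur subunit, varied most. It read 9.07, 8.66, 9.13 and 8.69 in TBC1D4-deficient replicates 1 to 4, against 8.54, 8.65, 8.61 and 8.97 in wild-type replicates 1 to 4. Replicates 1 and 3 of the TBC1D4-deficient group and replicate 4 of the wild type stood apart from the other arrays, and the groups overlapped. The mean was 8.89 ± 0.25 in TBC1D4-deficient arrays and 8.69 ± 0.19 in wild-type arrays (SD, n = 4 each). Sdhb thus stood at 0.19 (-0.10 to 0.49) on the log2 difference scale. Sdha, the flavoprotein that oxidises succinate, had a difference of 0.03 (-0.10 to 0.17). The membrane anchors Sdhc and Sdhd, which pass electrons to ubiquinone, stood at 0.08 and 0.09. The range over the 8 arrays was 0.59 for Sdhb, 0.19 for Sdha, 0.24 for Sdhc and 0.32 for Sdhd.

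In complex III, 4 of 7 genes were higher and 3 lower (median 0.05; 0 passed). Uqcr11, a small subunit, read 7.43, 7.52, 7.64 and 7.51 in TBC1D4-deficient replicates 1 to 4, against 7.26, 7.47, 7.33 and 7.44 in wild-type replicates 1 to 4. The groups overlapped only between TBC1D4-deficient replicate 1 and wild-type replicates 2 and 4 (difference 0.15, -0.0068 to 0.31). A dimmer probe set of Uqcr11 stood at 0.08. Uqcrc1, a core protein, and the small subunits Uqcrq and Uqcr10 stood at 0.05, 0.05 and 0.06. Uqcrfs1, the Rieske iron-sulfur protein that passes electrons to cytochrome c1, and Uqcrb stood at -0.0052 (-0.14 to 0.13) and -0.04 (-0.21 to 0.13). Without wild-type replicate 1 the complex III median was -0.006, so its sign rested on that array.

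Complex IV held 12 genes that were higher and 5 that were lower (median 0.05; 0 passed), with Cox7a2l at the top and Cox7a1 at the bottom. Cox5a, a subunit on the matrix side, had groups that did not overlap. It read 7.66, 7.59, 7.76 and 7.54 in TBC1D4-deficient replicates 1 to 4, against 7.48, 7.47, 7.47 and 7.52 in wild-type replicates 1 to 4. TBC1D4-deficient replicate 4 lay just above wild-type replicate 4. The mean was 7.64 ± 0.10 in TBC1D4-deficient arrays and 7.49 ± 0.02 in wild-type arrays (SD, n = 4 each), and the log2 difference was 0.15 (0.0099 to 0.29; limma unadjusted p = 0.0384, adjusted p = 0.9999). Cox6c, a small membrane subunit and the brightest of complex IV, was the only member with groups apart in the other direction. It read 11.23, 11.17, 11.21 and 11.22 in TBC1D4-deficient replicates 1 to 4, against 11.25, 11.28, 11.26 and 11.25 in wild-type replicates 1 to 4. That difference was -0.05 (-0.17 to 0.06, limma unadjusted p = 0.336). In a slightly dimmer probe set of Cox6c the difference was -0.04 and the groups overlapped.

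In complex V, 14 of 17 genes were higher and 3 lower (median 0.05; 0 passed). Atp5mpl, a small proteolipid of the membrane part, read 8.53, 8.49, 8.82 and 8.43 in TBC1D4-deficient replicates 1 to 4, against 8.51, 8.29, 8.35 and 8.34 in wild-type replicates 1 to 4. TBC1D4-deficient replicate 3 was the highest array, and wild-type replicate 1 lay among the TBC1D4-deficient values (difference 0.20, -0.0069 to 0.40). Atp5o, which links the catalytic head to the peripheral stalk, stood at 0.12 (-0.03 to 0.28), Atp5pb, the stalk subunit b, at 0.10 (-0.05 to 0.26) and Atp5j2, subunit f, at 0.12 (-0.04 to 0.28). Atp5b, the catalytic beta subunit and the brightest member of complex V, stood at -0.02 (-0.14 to 0.10), and Atp5a1, the alpha subunit of the same head, at 0.05 (-0.08 to 0.18). Atp5k, subunit e, was the dimmest of the complex and stood at 0.05 (-0.09 to 0.19).

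**Figure D2:**
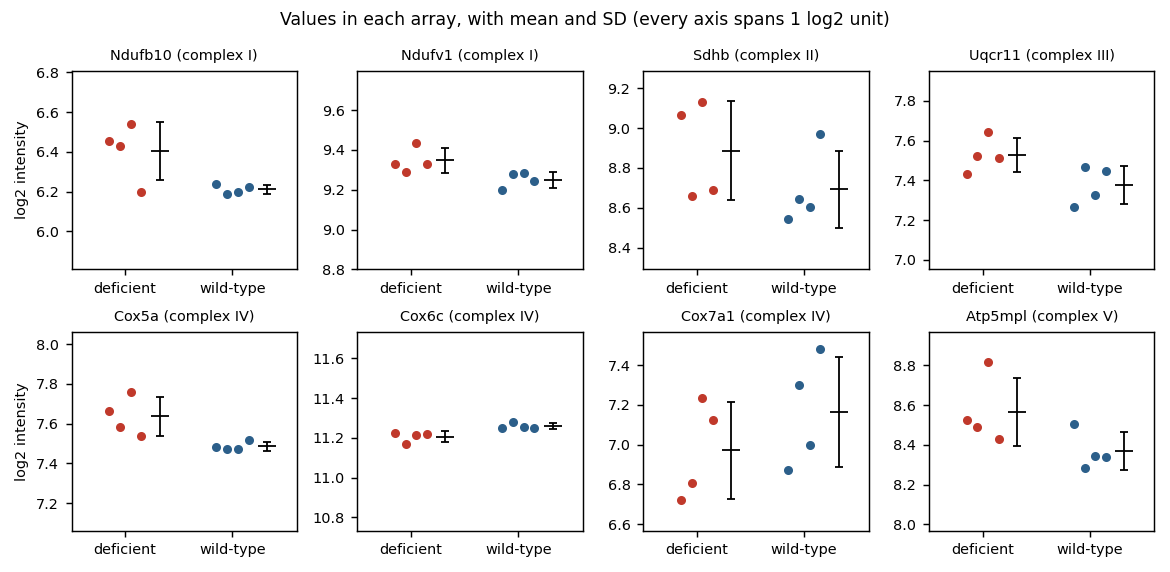
Log2 intensity (vertical) of 8 genes in each TBC1D4-deficient array (left, red) and each wild-type array (right, blue), with the mean and SD in black (n = 4 each). Every panel spans 1 log2 unit; the groups are apart in Ndufv1, Cox5a and Cox6c, and Cox7a1 has the widest spread.

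Isoforms known from other tissues were dim in arrays of both genotypes, with Cox7a1 as the exception. Cox4i1, the general isoform of subunit 4, read 9.36 to 9.57 in TBC1D4-deficient arrays and 9.28 to 9.42 in wild-type arrays. Cox4i2, known from lung and from low oxygen, read 2.66 to 2.83 in TBC1D4-deficient arrays and 2.61 to 2.98 in wild-type arrays, at the 44.5th percentile of all probe sets. Cox6a2 and Cox8b, isoforms of heart and skeletal muscle, were at the 51.6th and 39.1st percentile. Cox6b2, Cox7b2 and Cox8c, known from testis, were at the 59.3rd, 4.5th and 41.7th percentile, and Ndufa4l2, a low-oxygen relative of Ndufa4, at the 41.9th. The general isoforms Cox6a1, Cox6b1, Cox7a2, Cox7b and Cox8a were all at or above the 97.5th percentile. No detection call came with the values. A dim probe set therefore cannot be told from background, and percentiles do not compare amounts of RNA between isoforms.

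Cox7a1 was the muscle isoform with a bright probe set. It is known as the heart and skeletal muscle form of subunit 7a, and here it stood at the 88.7th percentile. It read 6.72, 6.81, 7.23 and 7.12 in TBC1D4-deficient replicates 1 to 4, against 6.87, 7.30, 7.00 and 7.48 in wild-type replicates 1 to 4. Its range over the 8 arrays was 0.76, the widest of the 80 genes (median range 0.28, narrowest 0.06), and the groups overlapped. The mean was 6.97 ± 0.25 in TBC1D4-deficient arrays and 7.16 ± 0.28 in wild-type arrays (SD, n = 4 each), and the log2 difference was -0.19 (-0.53 to 0.14; unadjusted p = 0.233), with 0.03 within arrays 5 to 8 and -0.41 within arrays 9 to 12. The general isoform Cox7a2 had a difference of 0.05 (-0.11 to 0.21) and a range of 0.28. Cox7a2l, a related gene counted with complex IV by its symbol, had a difference of 0.18 (-0.02 to 0.39), and its dimmer probe set had 0.20.

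Of the other general isoforms, Cox6b1 stood at 0.11 (-0.03 to 0.26), Cox4i1 at 0.10 (-0.04 to 0.25), Cox6a1 at 0.06 (-0.07 to 0.19), Cox8a at 0.03 (-0.09 to 0.15) and Cox7b at -0.05 (-0.17 to 0.08). Ndufa4, named for complex I and now placed in complex IV, stood at 0.15 (-0.01 to 0.31). The dim isoforms ran from -0.06 for Cox8b to 0.12 for Cox6b2, with Cox4i2 at -0.0005. The 3 genes of the proton-carrying subunit c, Atp5g1, Atp5g2 and Atp5g3, encode the same mature protein behind different import sequences. They stood at -0.0065 (-0.13 to 0.11), 0.08 (-0.06 to 0.23) and 0.04 (-0.08 to 0.16), and all 3 were at or above the 98.9th percentile.

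**Figure D3:**
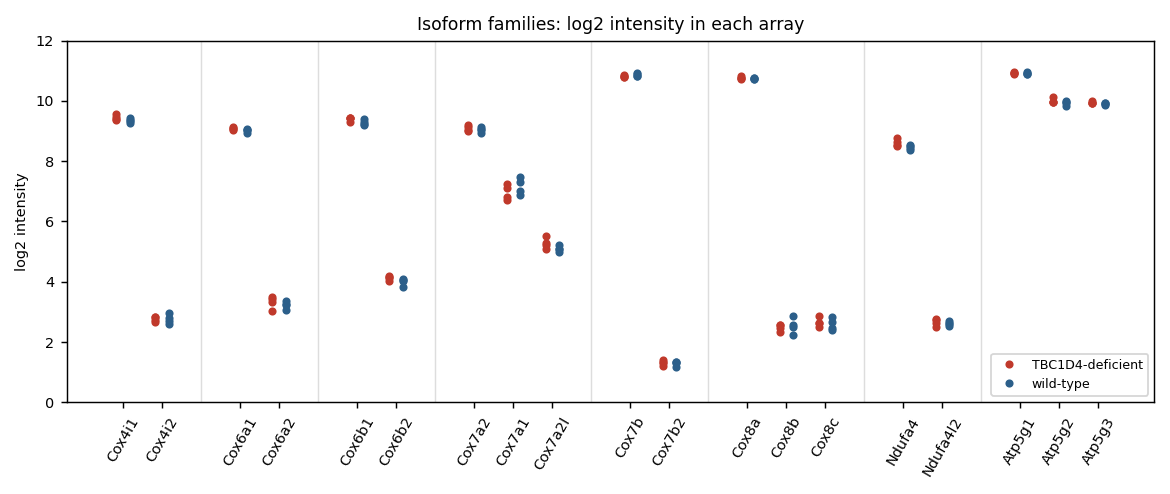
Log2 intensity (vertical) of the isoform families (horizontal) in each of the 4 TBC1D4-deficient (red, left) and 4 wild-type (blue, right) arrays. The general isoforms lie at 8.38 or above, the dim isoforms at 4.19 or below, and Cox7a1 and Cox7a2l between them; red and blue points overlap in every family.

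The same arrays stood high or low in several complexes. After each gene's average was subtracted, the mean of the 80 genes was 0.016, -0.016, 0.086 and 0.021 in TBC1D4-deficient replicates 1 to 4, against -0.068, -0.027, -0.026 and 0.015 in wild-type replicates 1 to 4. The groups overlapped, since wild-type replicate 4 lay above TBC1D4-deficient replicate 2. TBC1D4-deficient replicate 3 was the highest array for 39 of 80 genes (48.8%, against 11.3% of all genes), among them 17 of complex I, 2 of complex II, 3 of complex III, 8 of complex IV and 9 of complex V. Wild-type replicate 1 was the lowest array for 29 of 80 (36.2%, against 12.6% of all genes). Both of these arrays were then left out, a choice made after the data were examined. That left 48 of 80 genes higher (60%, against 50.5% of all genes), with a median of 0.02. Leaving out TBC1D4-deficient replicate 3 alone left 61 higher and a median of 0.03, and leaving out wild-type replicate 1 alone left 54 and 0.04.

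Markers of other cell types also differed between these arrays. The 21 measured proximal tubule markers all averaged lower in TBC1D4-deficient arrays (0 passed; median -0.29), and their list mean ran from -1.07 to 0.304 in TBC1D4-deficient arrays and from -0.568 to 0.764 in wild-type arrays. All 14 endothelial markers averaged lower (0 passed; 8 at an unadjusted p below 0.05, where 1.54% of all genes were lower; median -0.25), with list means of -0.364 to 0.006 in TBC1D4-deficient arrays and 0.024 to 0.2 in wild-type arrays, which did not overlap. Mean levels ran from 3.68 to 9.6 for the proximal tubule markers and from 2.63 to 5.27 for the endothelial ones. Of the mitochondria-rich neighbours, 6 of 8 thick ascending limb markers averaged lower (list means -0.142 to 0.031 in TBC1D4-deficient and -0.067 to 0.193 in wild-type arrays) and so did 7 of 8 intercalated cell markers (list means -0.298 to 0.313 in TBC1D4-deficient and -0.16 to 0.387 in wild-type arrays). All 6 principal cell markers averaged lower (list means -0.363 to 0.044 in TBC1D4-deficient and -0.153 to 0.32 in wild-type arrays). The 11 DCT markers had 9 higher and 2 lower (median 0.03), with means of -0.017 to 0.047 in TBC1D4-deficient arrays and -0.032 to 0.005 in wild-type arrays. With the proximal tubule mean as a covariate 65 of 80 subunit genes were higher (81.2%, against 49.1% of all genes). Their median was 0.06. The part of the proximal tubule or any other markers in the subunit values was not tested. In sorted tubules, fewer cells of a type and less RNA per cell cannot be told apart.

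**Figure D4:**
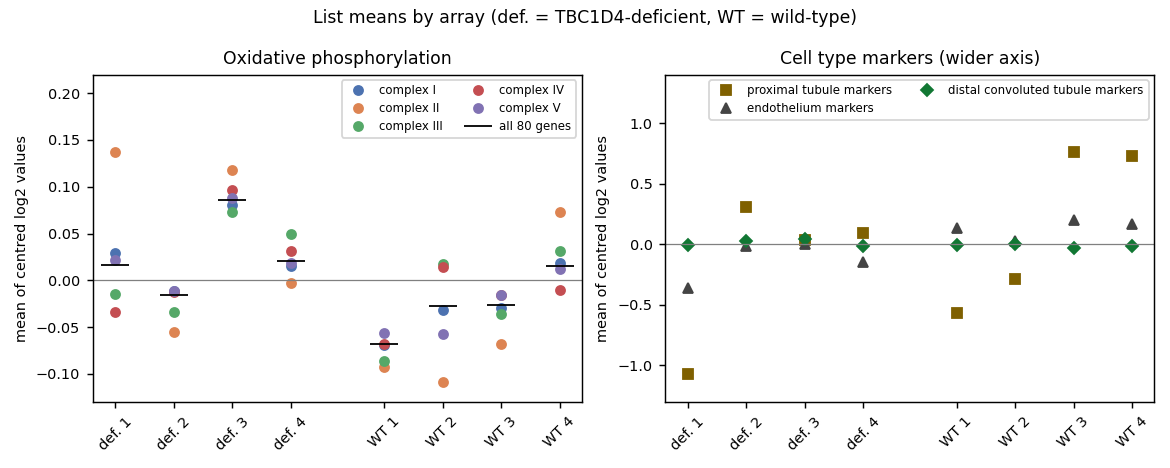
Mean of centred log2 values (vertical) in each array (horizontal, TBC1D4-deficient left of wild-type) for the 5 complexes as points and all 80 genes as a black dash (left panel), and for 3 marker lists on a wider axis (right panel). TBC1D4-deficient replicate 3 has the highest dash (0.086) and wild-type replicate 1 the lowest (-0.068), while the proximal tubule markers span -1.07 to 0.764.

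The lean was not spread evenly over brightness. Split at mean log2 levels chosen after the data were examined, 13 of 15 genes below 7 were higher in TBC1D4-deficient arrays (median 0.08), as were 35 of 38 genes from 7 to 9.5 (median 0.07) and 14 of 27 genes at 9.5 and above (median 0.01). Over all genes at these levels the shares higher were 49.3%, 53% and 43.7%. The genes below 7 include the 7 with a mean below 5, all dim isoforms that cannot be told from background. Among the genes with a mean of at least 5, 57 of 73 were higher (78.1%, against 55.4% of all genes at that level). Of the 18 subunit genes that averaged lower, 13 were at 9.5 or above, among them Atp5b, Cox6c, Cox7b, Ndufb4 and Uqcrb.

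**Figure D5:**
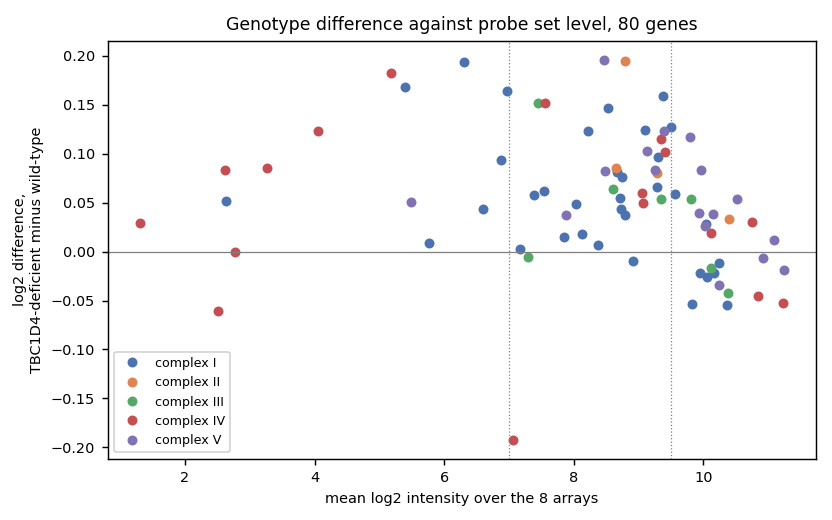
Log2 difference (vertical, TBC1D4-deficient minus wild-type) of the 80 genes against their mean log2 intensity over the 8 arrays (horizontal), coloured by complex, with dotted lines at 7 and 9.5. Between the lines 35 of 38 points lie above 0, and to the right of 9.5 there are 14 of 27.

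Other nuclear genes of the pathway leaned the same way, and none passed the threshold. Of 45 assembly factors measured, 35 were higher and 10 lower (median 0.04; 0 passed). At an unadjusted p below 0.05 there was 1 of 45 (2.22%, against 2.99% of all genes in either direction). Coa3, an assembly factor of complex IV, read 7.09, 7.14, 7.33 and 7.05 in TBC1D4-deficient replicates 1 to 4, against 6.79, 7.00, 6.98 and 6.86 in wild-type replicates 1 to 4. Its groups did not overlap and its difference was 0.25 (0.07 to 0.43; unadjusted p = 0.0112, adjusted p = 0.9999). Tmem186, which acts in complex I assembly, stood at 0.20 (-0.0006 to 0.40). The groups did not overlap for 2 assembly factors that were higher and 1 that was lower, against 0.932% and 0.99% of all genes. The lower one was Cox20, at -0.09 (-0.22 to 0.03). Of 23 electron and nucleotide carriers, 15 were higher and 8 lower (median 0.03; 0 passed), with Coq9, which acts in ubiquinone synthesis, at 0.14 and the testis cytochrome c Cyct, which was dim, at 0.16. Of 16 genes of the tricarboxylic acid cycle, 14 were higher and 2 lower (median 0.05; 0 passed), with Suclg1 and Sucla2, subunits of succinyl-CoA ligase, at 0.12 and 0.13.

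The genotype difference was also compared between the 2 number sets. The interaction of genotype and set passed for 0 of 80 members and for 0 of 23039 probe sets (0.0%) with limma; at an unadjusted p below 0.05 there were 0 members and 1038 probe sets (4.51%). The smallest unadjusted p among members was 0.0641, for Ndufa4l2.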

How the data were processed

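RNA of sorted tubules (100 ng per labelling, per the labels' protocols) was read on 8 Affymetrix arrays with a biotin label, 1 per sample, grouped by title. Linear intensity values per probe set were deposited by the authors and made with Affymetrix Power Tools, per the submitters' processing notes, which name no version or normalization method. Medians of 8.41 to 9.03 show a broadly common scale, which would hide a shift shared by most genes. The medians were 8.93 to 9.03 in arrays 5 to 8 and 8.41 to 8.77 in arrays 9 to 12, so the number sets differed slightly in scale. The number of arrays limits the precision.

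Values were taken to log2 with no pseudocount and no filter. The genotype comparison used limma's lmFit and eBayes (limma 3.58.1, R 4.3.3; 2-sided) over the 23039 probe sets with at least 1 symbol, with Benjamini-Hochberg adjustment at 0.05 and 95% intervals. The fit was tested on simulated data. Gene IDs of all 80 members matched RefSeq GRCm38.p6. Lists were described by counts and medians, with no list test. Promoter cores were shortened to 7 letters after longer forms had been searched. Named were the 4 members of smallest p, the brightest and the dimmest in each complex, members whose groups did not overlap, the isoforms, up to 2 genes of smallest p per other mitochondrial list and the 2 brightest DCT markers. Ndufs1, Ndufa1, Atp5a1, Ndufb5, Ndufc1, Cox20 and Mrps21 were picked after their values were seen. Members and lists were chosen with earlier results of these data known. Alternatives changed filters, rows, scaling, pseudocount, prior, weights, blocks, covariates, probe set choice, members and arrays.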

Additional observations from a re-analysis of the deposited data

Results flagged for a closer look

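In groups of 4 arrays, 1 array stood apart from the other 3 for 6 of 96 sets of values examined, where chance alone gives about 1 in 20. TBC1D4-deficient replicate 3 was high for Atp5g2 (10.13, others 9.97 to 9.98) and TBC1D4-deficient replicate 1 for Atp5pb (9.34, others 9.11 to 9.14). TBC1D4-deficient replicate 2 was low for Cox6b1 (9.31, others 9.43 to 9.44). Wild-type replicate 1 was low for Uqcrq (9.2, others 9.35 to 9.36) and for Uqcrfs1 (7.27, others all at 7.31). Wild-type replicate 2 was low for Sdhd (8.44, others 8.65 to 8.68). The difference between genotypes of Sdhd was 0.19 within arrays 5 to 8, which hold that array, and -0.02 within arrays 9 to 12.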

How the results depend on the processing

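Under each of the alternatives run, 0 of the 80 genes passed the threshold, also at an adjusted p below 0.10. The number of genes higher in TBC1D4-deficient arrays was 54 to 66 with each array left out in turn and stayed above the number lower under every other setting. The median of all 80 was 0.0254 to 0.0638 with each array left out and 0.0202 to 0.0732 otherwise. With each array left out, the medians of complexes I, II, IV and V were 0.0202 to 0.0687, 0.0535 to 0.1092, 0.0326 to 0.0694 and 0.0273 to 0.073, and that of complex III was -0.006 (without wild-type replicate 1) to 0.0621. Leaving out both TBC1D4-deficient replicate 3 and wild-type replicate 1 gave 0.008 for complex I and -0.0147 for complex III. Tbc1d4 kept its call under every alternative that tested it (-4.35 to -4.18 with each array left out); the filters on dim probe sets removed it. With the title number as a replicate block, 62 of 80 genes were higher, the median was 0.0527 and 0 passed. Same-numbered arrays deviated together with r = 0.40, -0.19, 0.04 and 0.01. TBC1D4-deficient replicate 1 alone correlated best with its own number. The best partners of TBC1D4-deficient replicates 1, 3 and 4 were wild-type replicates 1, 2 and 3. These were neighbours in description number (10 and 11, 6 and 5, 8 and 7). The best partner of TBC1D4-deficient replicate 2 was wild-type replicate 3, which was not such a neighbour (12 and 7). So few arrays cannot settle whether samples were paired, and a block on description neighbours was not tested. Of 1032 values of the 42 named genes under alternatives, 43 had the other sign, in 17 genes, and 0 passed. The cause of these changes was not tested.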

Other observations

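Proteins of the mitochondrial ribosome, which makes the mitochondrially encoded subunits, showed values like those of the subunits. Of 74 genes measured, 58 were higher and 16 lower in TBC1D4-deficient arrays (median log2 difference 0.05; 0 passed with limma). At an unadjusted p below 0.05 there was 1 of 74 (1.35%, against 2.99% of all genes in either direction). Mrps7 read 6.83, 6.77, 6.99 and 6.83 in TBC1D4-deficient replicates 1 to 4, against 6.48, 6.65, 6.79 and 6.69 in wild-type replicates 1 to 4 (difference 0.20, 95% interval 0.03 to 0.38). Mrps21, a bright probe set, stood at -0.20 (-0.40 to 0.0037). Averaged over the 74 centred genes, the values were 0.03, -0.021, 0.047 and 0.049 in TBC1D4-deficient replicates 1 to 4, against -0.088, -0.059, 0.014 and 0.028 in wild-type replicates 1 to 4, so TBC1D4-deficient replicate 2 lay among the wild-type arrays.

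For 22 subunit genes the array held more than 1 probe set of 1 symbol, and in 20 of them every probe set differed in the same direction. The exceptions were Cox6a1 (0.06 and -0.03) and Ndufc1 (-0.0096 and 0.0071). The widest gap was in Ndufb5, at 0.04 for the bright probe set and 0.27 for the dim one. Processed copies of these genes are common in the mouse genome, and the files name no locus for a probe set.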
